A study of Danio rerio with 63 samples.

Results

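Zebrafish (Danio rerio) blastoderm explants carrying an active Nodal receptor were compared with uninjected explants at 90% epiboly, late in gastrulation, by RNA-seq of polyadenylated RNA. The comparison took every gene of the count table and the 3 CA-acvr1b* and 3 uninjected libraries of that stage, 6 of 63 libraries in the series. CA-acvr1b* is mRNA of a constitutively active form of Acvr1b, a type I receptor for Nodal. The embryos behind the first group received 0.5 pg of it at the 1-cell stage, and those behind the control group received no injection. Both kinds of embryo had their explants removed at about 3 hours post fertilization (hpf), and the explants stayed in explant medium until about 9 hpf. The series also holds explants given 10 pg of ndr2 mRNA, which encodes a Nodal ligand, and 7 stages from sphere to 2-somite. Uninjected explants are no control for the injection itself, and the labels give no strain, no number of explants in a library and no acvr1b copy from which the mRNA was made. The series' design text calls libraries A, B and C of a group biological replicates.

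Nodal proteins are secreted TGF-beta family ligands that bind paired activin receptors with an EGF-CFC coreceptor, after which phosphorylated Smad2 and Smad3 act in the nucleus with Foxh1 and other factors. In the zebrafish blastula this signal, strongest at the margin, induces endoderm and mesoderm, including the prechordal plate and notochord of the organizer, and the organizer secretes antagonists of BMP. Blastoderm taken from outside the margin receives little Nodal signal and mostly becomes epidermis under BMP signalling. An active receptor signals without a ligand and in every cell that holds it.

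The 6 libraries held between 12282911 and 17948492 counts, with TMM scaling factors between 0.887 and 0.960. Levels are counts per 1000000 counts after that scaling (CPM). A count of 0 allows a level of up to 3 counts, between 0.183 and 0.258 CPM in these libraries, for counting error only. Uninjected replicate A stood apart. Its log2 CPM correlated with those of uninjected replicates B and C at 0.957 and 0.947 across genes, against 0.966 between B and C and between 0.967 and 0.977 among the CA-acvr1b* libraries. It lay closer to the uninjected 2-somite mean (Pearson r 0.976) than to the uninjected 75% epiboly mean (0.961), whereas replicates B and C lay closer to the 75% epiboly mean (0.983 and 0.971, against 0.953 and 0.942). Over the 4299 genes (22.5% of those tested) that changed between those stages in uninjected explants, replicate A was placed 68.0% of the way from the 75% epiboly mean to the 2-somite mean, and B and C 13.7% of it. The CA-acvr1b* libraries A, B and C were placed 34.7%, 50.4% and 28.1% of the way between the means of their own condition. These placements were computed after the values had been seen, and genes are not independent replicates. The main results that rest on uninjected replicate A are therefore given with and without it. Uninjected replicates B and C were placed lower than every CA-acvr1b* library, each on the scale of its own condition. Fits without uninjected replicate A are thus not matched in this placement either. Where the uninjected libraries left in hold few or no counts of a gene, its fitted fold change depends on the prior count, as for lft1 and foxj1a without uninjected replicate A. The cause of its position was not tested.

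CA-acvr1b* changed 475 of 19069 tested genes, 2.49% of them, at an adjusted p under 0.05 in edgeR's quasi-likelihood test. Of these, 368 were higher (1.93% of tested genes) and 107 were lower (0.561%). A change of at least 2-fold was seen in 302 of the higher and 64 of the lower genes, and the median absolute log2 fold change was 2.62 in the higher and 1.11 in the lower genes. The 3 libraries of one group all lay above those of the other in 365 of the 368 higher genes and 97 of the 107 lower genes, and in 2920 of all tested genes (15.3%, with CA-acvr1b* above in 8.65% and uninjected above in 6.66%). In 32 of the higher genes no uninjected library held a count. Without uninjected replicate A, 347 of 19752 tested genes were called (1.76%), 284 higher and 63 lower. Of the 368 higher genes 262 (71.2%) and of the 107 lower genes 36 (33.6%) were still called in the same direction. The number of lower genes also fell by over 1.5 times when CA-acvr1b* replicate A (40 genes), B (67) or C (55) was left out, and was 114 and 103 without uninjected replicates B and C. The number of higher genes stayed between 277 and 328 whichever of the 6 libraries was left out.

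**Figure D1:**
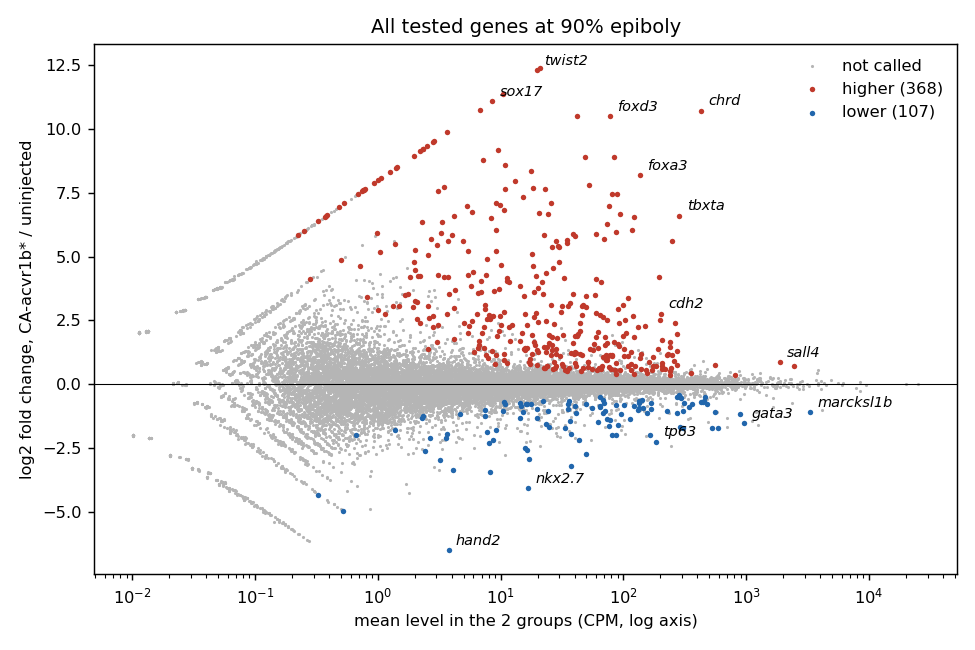
Each point is a tested gene, with its mean level in the 2 groups (CPM, log axis) against its log2 fold change, CA-acvr1b* over uninjected, at 90% epiboly; red marks the 368 higher genes, blue the 107 lower genes and grey the rest. Higher genes are more numerous and reach larger fold changes than lower ones, and the topmost straight line of points holds genes with no count in uninjected explants, whose fitted values depend on the prior count.

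The injected construct and the Nodal pathway were examined first. The table has a pair of acvr1b genes, and counts cannot separate injected from endogenous transcripts. acvr1ba (ENSDARG00000018968) held 440.4, 333 and 404 CPM in the CA-acvr1b* libraries A, B and C and 129.6, 188 and 159 CPM in the uninjected ones. All 3 CA-acvr1b* libraries lay above all uninjected ones, with a log2 fold change of 1.3 (SE 0.18, adjusted p 3.76e-07 in edgeR). In ndr2 explants, which received no receptor mRNA, acvr1ba stood at 338 ± 71 CPM (SD, n = 3), so its level does not check the injection. The other copy, acvr1bb, was not called (adjusted p 0.906 in edgeR). Of 11 tested receptor, Smad and Foxh1 genes only acvr1ba rose, and foxh1, the DNA-binding partner of Smad2, fell by 0.71 on the log2 scale (edgeR adjusted p 0.00798). The foxh1 libraries overlapped in level, with 338, 242 and 435 CPM against 374, 651 and 631 CPM, and its call was lost without CA-acvr1b* replicate B, uninjected B or uninjected C.

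Nodal ligand and feedback genes were among those that rose. ndr2, which encodes a Nodal ligand, held 64.9, 44.7 and 42.5 CPM against 0.579, 0 and 0.602 CPM, a log2 fold change of 7.1 (SE 0.72, adjusted p 6.22e-10 in edgeR). tdgf1, the EGF-CFC coreceptor gene, held 532, 394 and 409 CPM against 46.4, 109 and 99.5 CPM and rose by 2.39 (SE 0.29, adjusted p 9.8e-08 in edgeR) on that scale. Both genes are themselves expressed at the margin of the embryo in response to Nodal. The secreted inhibitors lft1 and lft2, which block Nodal signalling, were almost without counts in uninjected explants. lft1 held 42.8, 34 and 29.1 CPM against 0.331, 0 and 0 CPM, and lft2 held 59.6, 40.9 and 36.9 CPM against 0.331, 0.306 and 0 CPM, with log2 fold changes of 8.34 (SE 1.09, adjusted p 3.83e-07 in edgeR) and 7.64 (SE 0.99, adjusted p 3.67e-07 in edgeR). dact2, which promotes breakdown of Nodal receptors, rose by 2.7 (SE 0.28, adjusted p 5.82e-10 in edgeR). All 3 tested feedback inhibitors rose, with a median log2 fold change of 7.64, against 0 over all tested genes. lft1 had a log2 fold change of 12.11 without uninjected replicate A. lft1 and ndr2 had log2 fold changes of 7.65 and 6.40 without uninjected replicate B.

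Several lists of genes describe what else changed. They name genes rather than cell types, several share members, and they were written with earlier results of these data known. Together they held 292 tested genes, of which 87 were higher and 10 lower (33.2% called, against 2.49% of all tested genes). A gene that passed the filter on low counts only through the CA-acvr1b* libraries had to differ, so these counts describe and do not support. Another 26 entries, ndr1, gsc, dkk1b, wnt8a, col2a1a and aldh1a2 among them, were listed at 0 in all 63 libraries, where a 0 cannot be told from reads that were not assigned to the gene. In tissue of mixed cells, a lower level can come from fewer cells of a type or less RNA per cell, and these cannot be told apart.

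**Figure D2:**
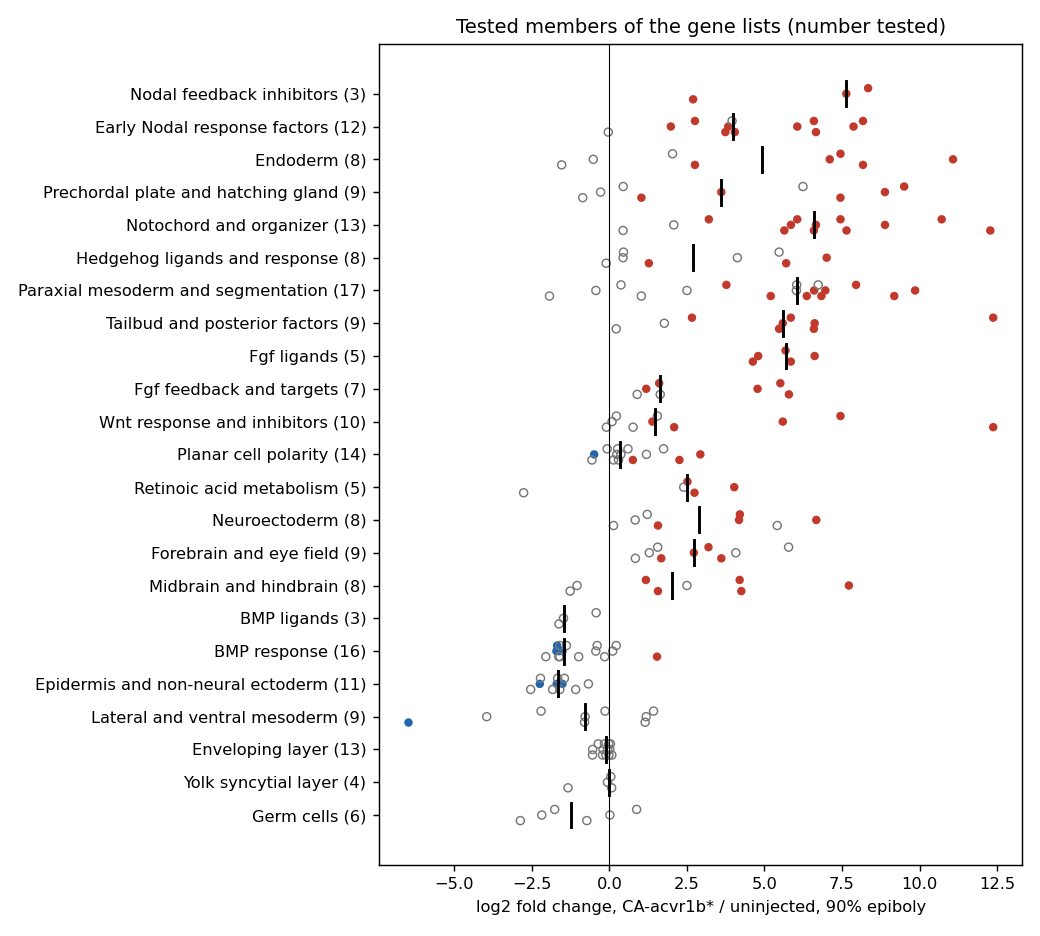
Each point is a tested member of a gene list, placed by its log2 fold change at 90% epiboly; filled points were called (red higher, blue lower), open points were not, and the black bar is the list's median over tested members. The medians of the endoderm, notochord, paraxial, tailbud, Fgf and neuroectoderm lists lie to the right of 0, those of the BMP ligand, BMP response, epidermis and lateral mesoderm lists to its left, and the enveloping layer list near it.

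Early Nodal response genes were higher, 10 of 12 tested. mixl1, a homeobox factor of mesendoderm, held 12.3, 8.06 and 11.8 CPM against 0.579, 0.367 and 1.38 CPM, a log2 fold change of 3.83 (SE 0.61, adjusted p 2.06e-05 in edgeR). lhx1a and foxa3, factors of the organizer, rose by 6.66 (SE 0.86, adjusted p 3.83e-07 in edgeR) and 8.17 (SE 0.7, adjusted p 1.65e-11 in edgeR). For foxa3 the libraries stood at 336, 247 and 236 CPM against 0.827, 1.22 and 0.688 CPM. osr1, a zinc finger factor, rose by 3.74, and fscn1a, an actin-bundling protein gene used in mesendoderm, by 1.98 (largest edgeR adjusted p 0.00127). The other two tested genes, eomesa and sebox, did not pass the test, although the 3 CA-acvr1b* libraries of sebox lay above all uninjected ones (edgeR adjusted p 0.0501). mixl1 and lhx1a had log2 fold changes of 4.52 and 7.27 without uninjected replicate C.

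Endoderm genes rose in 5 of 8 tested entries. sox17, the defining endoderm factor, held 24.5, 11.4 and 15.5 CPM and was without a count in the 3 uninjected libraries, which puts it at least 74.6-fold higher with the uninjected level set at 3 counts per library (adjusted p 1.35e-05 in edgeR). sox32, which acts directly above sox17 in zebrafish, held 24.7, 11.7 and 18.5 CPM against 0, 0.122 and 0.258 CPM, a log2 fold change of 7.1 (SE 1.25, adjusted p 0.000133 in edgeR). foxa2 rose by 7.45 (SE 0.81, adjusted p 7.67e-09 in edgeR). gata5 rose by 2.76 (SE 0.75, adjusted p 0.0269 in edgeR), a call that was lost whichever of the 6 libraries was left out. gata6 did not follow them, with 12.1, 9.94 and 16.6 CPM against 33.7, 36.1 and 42.3 CPM and a log2 fold change of -1.54 (SE 0.67, adjusted p 0.376 in edgeR). Each CA-acvr1b* library thus lay below every uninjected one, without a call. At 50% epiboly gata6 was called higher in CA-acvr1b* explants, with a log2 fold change of 4.32 (SE 0.82, adjusted p 0.00205 in edgeR). At 75% epiboly it was called lower, at -2.83 (SE 0.71, adjusted p 0.0195 in edgeR). It was not called at shield or 2-somite. foxa2 had a log2 fold change of 8.41 without uninjected replicate B. sox32 had a log2 fold change of 7.89 without uninjected replicate C.

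Prechordal plate genes rose in 5 of 9 tested entries. frzb, a secreted Wnt inhibitor, held 216, 199.8 and 118 CPM against 0.661, 0.795 and 1.63 CPM, a log2 fold change of 7.45 (SE 0.76, adjusted p 1.33e-09 in edgeR). The Wnt receptor gene fzd8b held 123, 112 and 58.5 CPM against 0.248, 0.183 and 0.172 CPM and rose by 8.88 (SE 1.05, adjusted p 5.48e-08 in edgeR). six3b, a homeobox factor of the anterior head, rose by 3.61 (SE 0.58, adjusted p 7.82e-05 in edgeR). The hatching gland protease gene ctslb held 6.81, 6.34 and 4.1 CPM and no uninjected count, a rise of at least 25-fold (adjusted p 0.000476 in edgeR). It has near-identical copies that counting could split, as have zgc:174855 and zgc:174153, which held no uninjected count either and rose with adjusted p of 0.000528 and 0.00254 in edgeR. prdm1a, which the hatching gland shares with other tissues, was not called and held 103, 139 and 86.9 CPM against 309, 139 and 149 CPM. six3b had a log2 fold change of 4.22 without uninjected replicate A.

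The notochord and organizer list had 11 of 13 tested genes higher and a median log2 fold change of 6.59. Summed over the list, the CA-acvr1b* libraries held 1784 to 2518 CPM and the uninjected ones 5.95 to 29.4 CPM. chrd, the secreted BMP antagonist of the organizer, held 945, 941 and 669 CPM against 0, 0.489 and 1.03 CPM, a log2 fold change of 10.71 (SE 0.9, adjusted p 1.15e-11 in edgeR). noto, a homeobox gene needed for the notochord, held 291, 207 and 197 CPM against 2.15, 4.16 and 4.04 CPM, a log2 fold change of 6.06 (SE 0.51, adjusted p 9.43e-12 in edgeR). tbxta, the Brachyury gene, held 668, 502 and 527 CPM against 0.579, 1.53 and 16 CPM and rose by 6.59 (SE 0.93, adjusted p 2.3e-06 in edgeR). Uninjected replicate C carried most of the uninjected tbxta. twist2 held 40.3, 58.2 and 19.95 CPM and no uninjected count, a rise of at least 172-fold (adjusted p 1.36e-06 in edgeR). admp, a BMP family ligand of the organizer, rose by 8.88 (SE 0.87, adjusted p 5.6e-10 in edgeR), and foxj1a, which controls genes of motile cilia, by 5.85 (SE 1.12, adjusted p 0.000418 in edgeR). Genes of later notochord matrix were low in both groups, and col9a1b and loxl5b were not called, at a mean of 1.90 ± 0.410 CPM and 0.796 ± 0.545 CPM (SD, n = 3) in CA-acvr1b* explants. foxj1a had a log2 fold change of 9.95 without uninjected replicate A. foxj1a had a log2 fold change of 5.18 without uninjected replicate B. tbxta and chrd had log2 fold changes of 9.00 and 11.55 without uninjected replicate C.

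Hedgehog genes rose in 3 of 8 tested entries. The ligand gene shhb, expressed in the midline, held 23.3, 19.7 and 15.4 CPM against 0, 0.367 and 0 CPM, a log2 fold change of 7.00 (SE 0.93, adjusted p 1.17e-06 in edgeR). gli1, a target of the pathway, held 155, 129.5 and 126 CPM against 1.07, 2.02 and 4.9 CPM and rose by 5.7 (SE 0.49, adjusted p 9.43e-12 in edgeR). The receptor gene ptch1, another target, was not called (edgeR adjusted p 0.965). shhb had a log2 fold change of 11.25 without uninjected replicate B. gli1 had a log2 fold change of 6.43 without uninjected replicate C.

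**Figure D3:**
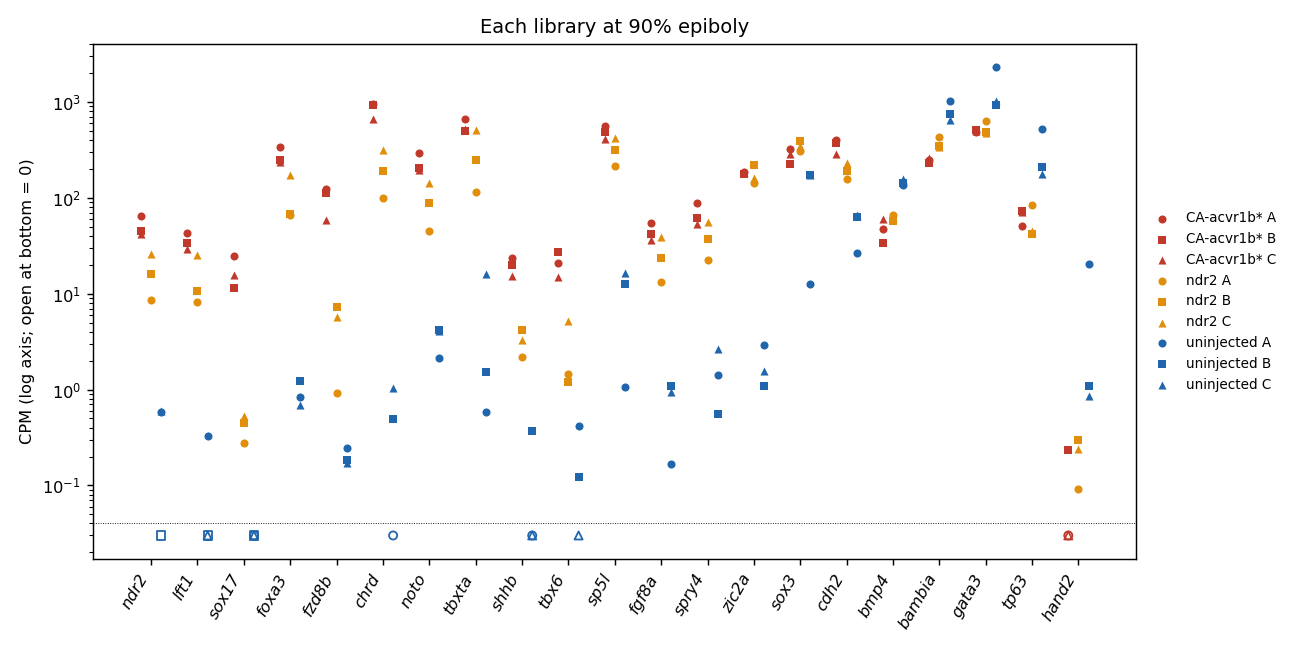
Levels of selected genes in each of the 9 libraries at 90% epiboly (CPM, log axis), with CA-acvr1b* in red, ndr2 in orange and uninjected in blue, circles for replicate A, squares for B and triangles for C; open symbols under the dotted line mark a level of 0. Uninjected replicate A lies below B and C for sox3, sp5l and cdh2 and above them for gata3, tp63 and hand2.

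Paraxial mesoderm genes were higher in 9 of 17 tested entries, and in 14 of the 17 all 3 CA-acvr1b* libraries lay above the uninjected ones. tbx6, a T-box factor of presomitic mesoderm, held 20.9, 27.2 and 14.8 CPM against 0.413, 0.122 and 0 CPM, a log2 fold change of 6.83 (SE 1.07, adjusted p 1.38e-05 in edgeR). ripply1, which helps to set somite boundaries, rose by 7.95 (SE 1.13, adjusted p 1.91e-06 in edgeR), and the protocadherin gene pcdh8 by 6.96 (SE 0.9, adjusted p 3.83e-07 in edgeR). The muscle regulator myf5 held 11.2, 5.87 and 4.99 CPM and no uninjected count, a rise of at least 31.9-fold (adjusted p 0.000647 in edgeR), and myod1 rose by 6.36 (SE 1.17, adjusted p 0.000383 in edgeR). For other members the call was absent or depended on single libraries. tbx16, the spadetail gene, held 256, 159 and 199 CPM against 20.3, 143 and 137 CPM and was not called (edgeR adjusted p 0.655). her1, of the segmentation clock, rose by 3.77 (SE 0.89, adjusted p 0.00845 in edgeR) and by 3.3 (adjusted p 0.0909 in edgeR) without uninjected replicate A. tbx16l rose by 5.2 (SE 1.2, adjusted p 0.00777 in edgeR) and lost its call without uninjected replicate A or C. Its log2 fold change was 10.36 without uninjected replicate B, which held all of its uninjected counts. tbx6 had a log2 fold change of 8.06 without uninjected replicate A. ripply1 and myod1 had log2 fold changes of 11.66 and 9.68 without uninjected replicate B. pcdh8 had a log2 fold change of 8.47 without uninjected replicate C.

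Tailbud genes rose in 7 of 9 tested entries. sp5a, a Wnt target, held 49.7, 46.9 and 29.7 CPM and no uninjected count, a rise of at least 183-fold (adjusted p 2.95e-08 in edgeR). Its relative sp5l held 568, 484 and 408 CPM against 1.07, 12.5 and 16.6 CPM, a log2 fold change of 5.59 (SE 0.85, adjusted p 1.15e-05 in edgeR). wnt3a, a ligand of the tailbud, rose by 5.47 (SE 1.2, adjusted p 0.00284 in edgeR). cdx4, a posterior homeobox gene, held 234, 223 and 160.4 CPM against 16, 39.8 and 41.6 CPM and rose by 2.66 (SE 0.65, adjusted p 0.0129 in edgeR), or 2.33 (adjusted p 0.123 in edgeR) without uninjected replicate A. The lateral and ventral mesoderm list was sparse, at a summed 14.2 to 18.7 CPM in CA-acvr1b* libraries and 18.7 to 36.5 CPM in uninjected ones. Of its 12 entries 3 were not tested. Among the 9 tested genes 0 were higher in edgeR, by DESeq2's Wald test or at an unadjusted p under 0.05, and 1 was lower. At such levels a lack of calls does not show a lack of response. The lower gene, hand2, held 20.5, 1.1 and 0.86 CPM in uninjected libraries A, B and C against 0, 0.235 and 0 CPM. The CA-acvr1b* group held 3 counts in all, and most uninjected counts were in replicate A. Over pooled counts hand2 was 91.6-fold higher in uninjected explants, with a 95% interval of 31 to 447 that leaves out the spread between libraries. Its log2 fold change of -6.48 (SE 1.6, adjusted p 0.0176 in edgeR) was -3.58 (adjusted p 0.479 in edgeR) without uninjected replicate A, and the call was also lost without any 1 of the CA-acvr1b* libraries. hand2 had a log2 fold change of -5.86 without CA-acvr1b* replicate A and -9.86 without CA-acvr1b* replicate B. wnt3a had a log2 fold change of 7.11 without uninjected replicate A.

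All 5 tested Fgf ligand genes rose, with a median log2 fold change of 5.68. fgf8a, a ligand of the margin and organizer, held 54.2, 41.6 and 36.4 CPM against 0.165, 1.1 and 0.946 CPM, a log2 fold change of 5.85 (SE 0.68, adjusted p 4.98e-08 in edgeR). fgf24 held 42, 34.3 and 30.2 CPM against 0, 1.1 and 3.27 CPM and rose by 4.62 (SE 0.91, adjusted p 0.000865 in edgeR). fgf3 and fgf17 rose by 4.8 and 5.68, and fgf4, at up to 1.61 CPM, was called at an edgeR adjusted p of 0.0477, which was lost with DESeq2's size factors and without 5 of the 6 libraries in turn, all but CA-acvr1b* replicate B. Genes that Fgf signalling induces rose in 5 of 7 tested entries. Of the feedback inhibitors, spry4 held 89, 62.1 and 53 CPM against 1.41, 0.55 and 2.67 CPM, spry1 rose by 4.78 (SE 0.52, adjusted p 3.78e-09 in edgeR) and spry2 by 5.79 (SE 0.5, adjusted p 9.43e-12 in edgeR). The ETS factor gene etv5b rose by 1.19 (SE 0.23, adjusted p 0.000395 in edgeR). dusp6, a phosphatase gene that Fgf induces, was higher in all 3 libraries, at 139, 99.2 and 133 CPM against 50.2, 74.4 and 74.6 CPM, but did not pass the test (edgeR adjusted p 0.376). fgf3, spry2 and fgf17 had log2 fold changes of 4.10, 6.40 and 9.39 without uninjected replicate B. fgf3 and fgf24 had log2 fold changes of 6.44 and 5.87 without uninjected replicate C.

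Wnt response genes and inhibitors rose in 5 of 10 tested entries. axin2, a direct target of beta-catenin, held 81.5, 74.9 and 57.9 CPM against 11.6, 15.4 and 23.5 CPM, a log2 fold change of 2.09 (SE 0.26, adjusted p 6.22e-08 in edgeR). sfrp1a, a secreted inhibitor, rose by 1.39 (SE 0.33, adjusted p 0.00845 in edgeR). In the planar cell polarity list, which covers the pathway behind convergence and extension, 3 of 14 tested genes rose and 1 fell. prickle1b held 192, 144 and 144 CPM against 12.2, 25 and 25.6 CPM, a log2 fold change of 2.93 (SE 0.41, adjusted p 1.68e-06 in edgeR). prickle1a rose by 2.26 (SE 0.3, adjusted p 6.53e-07 in edgeR) and the receptor gene fzd7b by 0.76 (SE 0.11, adjusted p 2.68e-06 in edgeR). dvl2, a cytoplasmic transducer, fell from 321 ± 9.71 to 228 ± 18.8 CPM (SD, n = 3), a log2 fold change of -0.49 (SE 0.097, adjusted p 0.000673 in edgeR). The noncanonical ligand gene wnt5b held 53, 57.1 and 45.1 CPM against 10.7, 17.3 and 18.2 CPM and did not pass the test (edgeR adjusted p 0.0985). Of 15 tested genes of gastrulation movement and adhesion 3 rose. cdh2, which encodes N-cadherin, held 399, 373 and 286 CPM against 26.8, 62.4 and 66.4 CPM, a log2 fold change of 2.76 (SE 0.38, adjusted p 1.47e-06 in edgeR), and cdh1, which encodes E-cadherin, was not called (log2 -0.34, edgeR adjusted p 0.174). The fibronectin gene fn1b rose by 1.64 (SE 0.34, adjusted p 0.00132 in edgeR). The other, fn1a, held 199, 249.6 and 150.2 CPM against 1033, 226 and 219 CPM, where uninjected replicate A alone was high, and was not called (adjusted p 0.0973 in edgeR), but was called lower without uninjected replicate B or C.

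Retinoic acid genes rose in 3 of 5 tested entries. cyp26a1, which breaks retinoic acid down, held 374, 350.2 and 291 CPM against 59.9, 60.1 and 57.2 CPM, with a log2 fold change of 2.52 (SE 0.2, adjusted p 9.63e-13 in edgeR). rdh10a, which makes its precursor, rose by 4.02 (SE 0.56, adjusted p 9.05e-07 in edgeR), and dhrs3b, which reverses that step, by 2.74 (SE 0.52, adjusted p 0.000395 in edgeR). rdh10a had a log2 fold change of 6.13 without uninjected replicate B.

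On the BMP side, 2 of 4 tested antagonist genes rose, and 4 of 16 tested response genes fell. The other 2 antagonist genes were not called, with log2 fold changes down to -2.40. In both, all uninjected libraries lay above the CA-acvr1b* ones. nog1, which encodes Noggin, held 106, 85.5 and 61.2 CPM against 19.9, 4.71 and 4.99 CPM, a log2 fold change of 3.1 (SE 0.59, adjusted p 0.00052 in edgeR), and chrd was given above. The ligand genes bmp4 and bmp7a were lower in all 3 CA-acvr1b* libraries without passing the test. With DESeq2's Wald test 1 of the 3 tested ligand genes was lower. bmp4 held 47.7, 33.7 and 60.9 CPM against 136, 144 and 158 CPM (log2 -1.62, edgeR adjusted p 0.0614) and bmp7a held 239.7, 197 and 334 CPM against 868, 606 and 672 CPM (log2 -1.48, edgeR adjusted p 0.211). Of the BMP response genes 1 rose besides the 4 that fell, with a median log2 fold change of -1.45, and in 10 the uninjected libraries all lay above the CA-acvr1b* ones. bambia, a decoy receptor gene, held 250.5, 232 and 263 CPM against 1026, 759 and 649 CPM, a log2 fold change of -1.71 (SE 0.4, adjusted p 0.00705 in edgeR), or -1.51 (adjusted p 0.0582 in edgeR) without uninjected replicate A. smad7, an inhibitory Smad gene, fell from 116 ± 15.9 to 37.6 ± 4.78 CPM (SD, n = 3), a log2 fold change of -1.62 (SE 0.37, adjusted p 0.00601 in edgeR), lost without CA-acvr1b* replicate A but kept without any other single library. ved, a ventral homeobox gene, was called at -1.69 (SE 0.47, adjusted p 0.0403 in edgeR), but at no setting with 1 of the 6 libraries left out. The gene that rose, msx1b, held 27.2, 37.6 and 20.5 CPM against 9.67, 8.38 and 11.4 CPM, with a log2 fold change of 1.54 (SE 0.35, adjusted p 0.00435 in edgeR), lost without CA-acvr1b* replicate B. DESeq2's Wald test called 6 of the 16 lower and 1 higher. Without uninjected replicate A edgeR called 1 higher and 1 lower gene, and the median was -1.13. In the separate libraries of other stages, edgeR called 5 of the 16 lower and 0 higher at 75% epiboly. At 2-somite it called 9 lower and 1 higher. Over all tested genes 0.399% and 2.68% were lower at those stages. nog1 had a log2 fold change of 4.11 without uninjected replicate A.

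Of 11 tested genes of epidermis and other non-neural ectoderm 3 fell in edgeR, and none rose in edgeR, by DESeq2's Wald test or at an unadjusted p under 0.05. Summed over the list, the CA-acvr1b* libraries held 2974 to 3584 CPM and the uninjected ones 7424 to 11648 CPM, and in 9 of 11 tested genes all uninjected libraries lay above all CA-acvr1b* libraries. tp63, which maintains basal epidermis, held 50.4, 72.3 and 70.7 CPM against 527, 212 and 177 CPM, a log2 fold change of -2.24 (SE 0.61, adjusted p 0.0306 in edgeR). gata3 held 488, 515 and 493 CPM against 2299, 942 and 1029.5 CPM and dlx3b held 290.2, 266 and 282 CPM against 1375, 638 and 705 CPM, with log2 fold changes of -1.51 (SE 0.33, adjusted p 0.00292 in edgeR) and -1.7 (SE 0.49, adjusted p 0.0479 in edgeR). Uninjected replicate A was highest in each of these, and without it none of the 3 was called, at log2 -1.6 (adjusted p 0.321 in edgeR), -0.99 (adjusted p 0.152 in edgeR) and -1.27 (adjusted p 0.342 in edgeR). The call of tp63 was lost without any 1 CA-acvr1b* library too, and that of dlx3b without any library but uninjected replicate B. tfap2a, foxi1 and gata2a were lower in all 3 libraries, at log2 -1.09, -1.67 and -1.6, and were not called (edgeR adjusted p 0.0838, 0.106 and 0.0627). DESeq2's Wald test called 6 of the 11 lower. The list's median was -1.67, or -1.33 without uninjected replicate A. Libraries of other stages are separate but share the fit. In edgeR 6 of the 11 genes were lower at 75% epiboly and 6 at 2-somite, and 0 were higher at either. Over all tested genes 0.399% and 2.68% were lower at those stages. tp63, gata3 and dlx3b were among the lower genes at both.

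**Figure D4:**
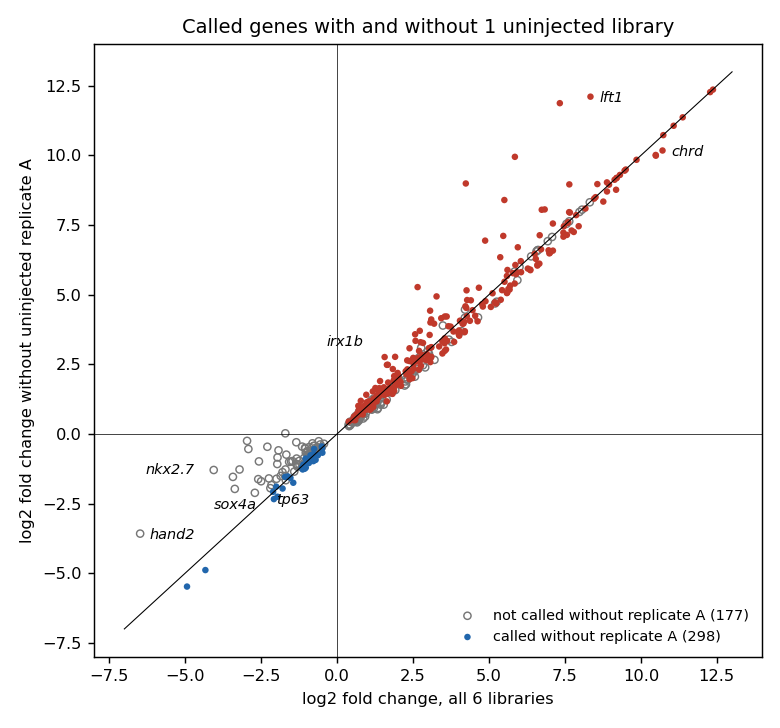
The 475 called genes by their log2 fold change from all 6 libraries (x axis) and without uninjected replicate A (y axis); filled points (red higher, blue lower) were still called (298), open points were not (177), and the diagonal marks equal values. hand2, nkx2.7, sox4a and other lower genes lie nearer to 0 without that library, and some higher genes, lft1 among them, lie above the diagonal.

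Of 8 tested neuroectoderm genes 4 rose. zic2a, a zinc finger factor of the neural plate and dorsal mesoderm, held 187, 179 and 188 CPM against 2.89, 1.1 and 1.55 CPM. Its log2 fold change was 6.67 (SE 0.68, adjusted p 1.71e-09 in edgeR), and that of zic1 was 4.18 (SE 0.57, adjusted p 4.83e-07 in edgeR). sox19b, a SoxB1 factor also supplied by the mother, rose by 1.57 (SE 0.26, adjusted p 4.6e-05 in edgeR). sox2 and sox3, SoxB1 factors that define neural ectoderm, were not called. sox3 held 323, 225 and 290.1 CPM against 12.5, 173 and 174 CPM, so that uninjected replicate A held far less of it than B and C, and its log2 fold change of 1.22 (SE 0.52, adjusted p 0.348 in edgeR) was 0.68 (adjusted p 0.769 in edgeR) without that library. Forebrain and eye field genes rose in 4 of 9 tested entries, among them otx2b, by 3.19 (SE 0.66, adjusted p 0.00161 in edgeR), and otx1, which rose by 1.67 (SE 0.43, adjusted p 0.0207 in edgeR) with all libraries and by 2.48 (adjusted p 0.000822 in edgeR) without uninjected replicate A, but lost its call without CA-acvr1b* replicate A or B or uninjected replicate B or C. Midbrain and hindbrain genes rose in 5 of 8. gbx1, expressed in the anterior hindbrain, held 35, 47.5 and 28.6 CPM against 2.65, 1.71 and 1.46 CPM, a log2 fold change of 4.25 (SE 0.64, adjusted p 6.85e-06 in edgeR). her5 and her11, of the midbrain-hindbrain boundary, rose by 7.72 (SE 1.2, adjusted p 1.55e-05 in edgeR) and 4.2 (SE 0.59, adjusted p 1.28e-06 in edgeR). irx1b held 79.6, 90.6 and 89.9 CPM against 62.7, 15.5 and 9.81 CPM, where uninjected replicate A was high, and rose by 1.57 (SE 0.42, adjusted p 0.0286 in edgeR). Its call was kept without uninjected replicate A, at 2.76 (adjusted p 1.97e-05 in edgeR), and lost without any 1 of the other libraries. In the border and crest list 2 of 12 tested genes rose, msx1b and foxd3, and foxd3, which the early organizer and later the neural crest express, held 210.0, 123 and 134 CPM against 0, 0.0612 and 0.258 CPM, a log2 fold change of 10.49 (SE 0.84, adjusted p 4.54e-12 in edgeR). The other 10 border and crest genes were not called, and 3 of them were lower at an unadjusted p under 0.05 in edgeR. That list's median log2 fold change was -0.72, or -0.10 without uninjected replicate A. otx2b had a log2 fold change of 3.96 without uninjected replicate A. her5 had a log2 fold change of 9.75 without uninjected replicate B. foxd3 and her11 had log2 fold changes of 11.82 and 5.04 without uninjected replicate C.

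Markers of tissue outside the deep blastoderm were checked against the labels. The enveloping layer, the outer epithelium that covers the blastoderm, had no called gene. krt4 held 7842, 8006 and 6527 CPM against 10386, 7840.3 and 6756 CPM and cldne held 1006, 873 and 1034 CPM against 804, 1126 and 1098 CPM. None of its 13 tested genes was called in edgeR or by DESeq2's Wald test or had an unadjusted p under 0.05, with log2 fold changes between -0.54 and 0.08, and the summed level ran from 20419 to 23346 CPM and from 21273 to 26159 CPM. Defining genes of the yolk syncytial layer were at or near 0, with mxtx2 listed at 0 in all libraries, mxtx1 at no more than 1.03 CPM and apoa1b at no more than 0.827 CPM. The apolipoprotein gene apoc1 was the one abundant member of that list and was not called, at 400.2 ± 75 against 1008 ± 103 CPM (SD, n = 3). It was called lower in 2 of 16 alternative settings. Of the list's 4 tested genes, 1 was lower at an unadjusted p under 0.05 in edgeR. Germ cell genes were present at a summed 24.7 to 30.6 CPM and 16.6 to 43.5 CPM, with nanos3 at no more than 1.89 CPM and none of 6 tested called in edgeR, although 2 were lower by DESeq2's Wald test and at an unadjusted p under 0.05. The defining genes of blastoderm ectoderm, sox3, tfap2a and tp63, were detected in all 6 libraries.

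The 15 largest rises among called genes with at least 5 CPM and no overlap between libraries were sp5a, twist2, tnfsf10l3, sox17, BX927327.1, chrd, foxd3, nkx1.2la, myf5, ctslb, zgc:174855, zgc:174153, foxc1a, admp and fzd8b. nkx1.2la, an NK family homeobox gene, held 87.9, 97.8 and 64.8 CPM against 0, 0 and 0.172 CPM, and foxc1a, a forkhead factor of paraxial mesoderm, held 23.1, 21.3 and 12.6 CPM against 0, 0.0612 and 0 CPM. With so few uninjected counts, their ratios were 1680.2-fold (95% counting interval 465 to 13879) and 770.3-fold (95% counting interval 138 to 30464). Both intervals leave out the spread between libraries. tnfsf10l3, of the TNF ligand superfamily, and the processed transcript BX927327.1 had no uninjected count and were at least 91.8-fold and 59-fold higher. By difference in mean CPM the largest gains were those of cx43.4, sall4, chrd, tbxta and sp5l. The gap junction gene cx43.4 rose from 1869.9 ± 378 to 3080.2 ± 630.3 CPM (SD, n = 3), and sall4, a zinc finger factor, from 1329 ± 528 to 2414 ± 99.3 CPM. Their small log2 fold changes of 0.72 (SE 0.18, adjusted p 0.0129 in edgeR) and 0.86 (SE 0.2, adjusted p 0.00588 in edgeR) were 0.55 (adjusted p 0.2 in edgeR) and 0.56 (adjusted p 0.146 in edgeR) without uninjected replicate A, and cx43.4 was not called without CA-acvr1b* replicate A either.

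The 15 largest falls were hand2, nkx2.7, isl2a, nell2a, sox4a, tbx3a, dixdc1a, fermt1, nhsl2, tp63, si:cabz01007794.1, nrp1a, ldlrad4b, csrp2 and ENSDARG00000075487. In most of them uninjected replicate A was far above the others. nkx2.7, a heart and pharyngeal NK homeobox gene, held 86.1, 4.95 and 4.3 CPM in the uninjected libraries and 2.04, 2.66 and 0.965 CPM in the CA-acvr1b* ones. sox4a held 166, 17.2 and 17.6 CPM against 5.58, 9.78 and 6.36 CPM. Without uninjected replicate A neither was called, at log2 -1.29 (adjusted p 0.795 in edgeR) for nkx2.7 and -1.28 (adjusted p 0.429 in edgeR) for sox4a. Leaving out CA-acvr1b* replicate A or C also ended the calls of hand2, nkx2.7, isl2a, nell2a and others. Over the 107 lower genes, uninjected replicate A was the highest uninjected library in 74 (69.2%) and more than 2 times both others in 28 (26.2%), against 37.9% and 8.97% of all tested genes. Of the 15 falls, ldlrad4b and csrp2 were still called without it, at log2 -2.34 (adjusted p 0.000994 in edgeR) and -1.89 (adjusted p 0.0066 in edgeR). ldlrad4b held 3.56, 7.16 and 6.62 CPM against 1.16, 0.939 and 2.01 CPM. csrp2, a LIM domain protein gene, held 304, 282 and 206 CPM against 50.4, 83.4 and 64.4 CPM, so all 3 uninjected libraries were high. The largest losses of mean CPM were those of marcksl1b, gata3, aif1l, dlx3b and bambia. marcksl1b fell from 4505 ± 161 to 2128 ± 313 CPM (SD, n = 3), and aif1l from 1231 ± 101 to 553 ± 74.1 CPM. The fall of aif1l, -1.16 (SE 0.2, adjusted p 5.13e-05 in edgeR), was -1.21 (adjusted p 0.000223 in edgeR) without uninjected replicate A, while marcksl1b was called in no setting with 1 of the 6 libraries left out.

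Set directly against ndr2 explants of the same stage, CA-acvr1b* explants differed in 71 genes (0.372% of tested genes), 64 higher (0.336%) and 7 lower (0.0367%). The injections differed both in molecule and in dose (0.5 pg of CA-acvr1b* mRNA, 10 pg of ndr2 mRNA), and these cannot be told apart here. For comparison, ndr2 explants differed from uninjected ones in 498 genes (2.61%), 271 higher (1.42%) and 227 lower (1.19%), a contrast that shares the uninjected libraries. Of the lists, 2 of 8 tested endoderm genes, 3 of 9 prechordal plate genes and 2 of 8 midbrain and hindbrain genes were among the higher ones. The notochord, paraxial, Fgf feedback, Wnt, BMP antagonist and adhesion lists had 1 each. sox17 held 0.275, 0.444 and 0.536 CPM in the ndr2 libraries A, B and C and was higher in CA-acvr1b* explants by 5.3 (SE 1.02, adjusted p 0.00526 in edgeR) on the log2 scale, and sox32 by 4.4 (SE 1.01, adjusted p 0.0285 in edgeR). foxa2, of the same list, did not pass, at 2.21 (SE 0.59, adjusted p 0.0927 in edgeR). frzb held 3.11, 12.3 and 13.2 CPM and was higher by 4.2 (SE 0.62, adjusted p 7e-05 in edgeR), and fzd8b by 4.37 (SE 0.76, adjusted p 0.00136 in edgeR). zgc:174855, zgc:174153, sox17, ctslb and itga4 had the largest differences, and the first 2 had no count in any ndr2 library. The integrin gene itga4 held 11.5, 14.6 and 8.45 CPM against 0.0915, 0.74 and 0.595 CPM in ndr2 explants, a difference of 4.51 (SE 0.7, adjusted p 9.52e-05 in edgeR). Of the notochord list only twist2 passed this test, higher by 3.8 (SE 0.75, adjusted p 0.0127 in edgeR). tbxta held 116, 249.7 and 516 CPM in the ndr2 libraries, a difference of 0.94 (SE 0.71, adjusted p 0.92 in edgeR), and noto differed by 1.32 (SE 0.4, adjusted p 0.164 in edgeR). chrd held 99.2, 189 and 319 CPM and differed by 2.07 (SE 0.56, adjusted p 0.0983 in edgeR), and nog1, at 5.49, 9.7 and 8.39 CPM in ndr2 explants, was higher by 3.42 (SE 0.6, adjusted p 0.0014 in edgeR). For tbxta, chrd, noto and lft1 the ndr2 libraries themselves spread widely, with replicate A lowest and C highest.

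The lower genes of that comparison included myclb, pdap1a, zgc:111986 and accs. pdap1a held 33, 50.1 and 3.87 CPM in ndr2 explants and 1.77, 0.548 and 0.644 CPM in CA-acvr1b* explants, a difference of -4.84 (SE 0.9, adjusted p 0.00221 in edgeR). Both comparisons use the CA-acvr1b* libraries. The count of 71 was 31 without CA-acvr1b* replicate B, and 25, 31 and 47 without ndr2 replicates A, B and C.

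The changes at 90% epiboly were then set beside those at other stages, whose libraries are separate but share the fit and its estimate of the spread. At 75% epiboly, about 8 hpf, CA-acvr1b* changed 308 genes (1.62% of tested genes), 232 higher (1.22%) and 76 lower (0.399%). At 2-somite, about 11 hpf, it changed 1744 (9.15%), 1232 higher (6.46%) and 512 lower (2.68%). Of the 368 genes higher at 90% epiboly, 202 (54.9%) were also higher at 75% epiboly and 319 (86.7%) at 2-somite, which is 87.1% of the genes higher at 75% epiboly and 25.9% of those higher at 2-somite. None was called in the opposite direction at either stage. Of the 107 lower genes, 42 (39.3%) were lower at 75% epiboly and 75 (70.1%) at 2-somite, which is 55.3% and 14.7% of the genes lower there. Called at all 3 stages were 175 of the 368 higher and 34 of the 107 lower genes, and 22 higher and 24 lower genes were called at 90% epiboly but not at the other two. Earlier stages had fewer calls, 68 at 50% epiboly (0.357%, with 63 higher, 0.33%, and 5 lower, 0.0262%) and 90 at shield (0.472%, with 78 higher, 0.409%, and 12 lower, 0.0629%). Of the 368 higher genes, 50 were among those at 50% epiboly and 69 among those at shield. Of the 107 lower genes, 0 were lower at 50% epiboly in edgeR, 2 were lower at shield and 1 was higher there. No gene's response differed between 90% and 75% epiboly at an adjusted p under 0.05 in edgeR, nor by DESeq2. Of 19069 tested genes, 518 had an unadjusted p under 0.05 in edgeR, fewer than the share of 0.05 that no difference would give. With 3 libraries per group, neither the lack of calls nor that shortfall shows that the responses were equal.

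The response to CA-acvr1b* differed between 90% epiboly and 2-somite in 28 genes (0.147% of tested genes), with the log2 fold change more positive at 90% epiboly in 1 (0.00524%) and more positive at 2-somite in 27 (0.142%). The count ranged from 0 to 109 when 1 library was left out. It was 0 without CA-acvr1b* replicate A or C or uninjected replicate C of 90% epiboly, or CA-acvr1b* replicate A of 2-somite. It was 1 without uninjected replicate B of 90% epiboly or A of 2-somite, 109 without uninjected replicate A of 90% epiboly, 72 and 16 without CA-acvr1b* replicates B and C of 2-somite, and 18 without uninjected replicate B of 2-somite. cdh11, a cadherin gene among the 27, held 7.21, 19.9 and 8.04 CPM against 4.63, 7.58 and 5.25 CPM at 90% epiboly, and 74.1 ± 44.7 against 4.14 ± 2.82 CPM (SD, n = 3) at 2-somite, a difference between stages of -3.15 (SE 0.7, adjusted p 0.0351 in edgeR). ets2, an ETS factor gene, was the exception, at 58.4 ± 12.4 against 52.1 ± 5.44 CPM at 90% epiboly and 46.5 ± 25.1 against 109.5 ± 29.7 CPM at 2-somite.

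**Figure D5:**
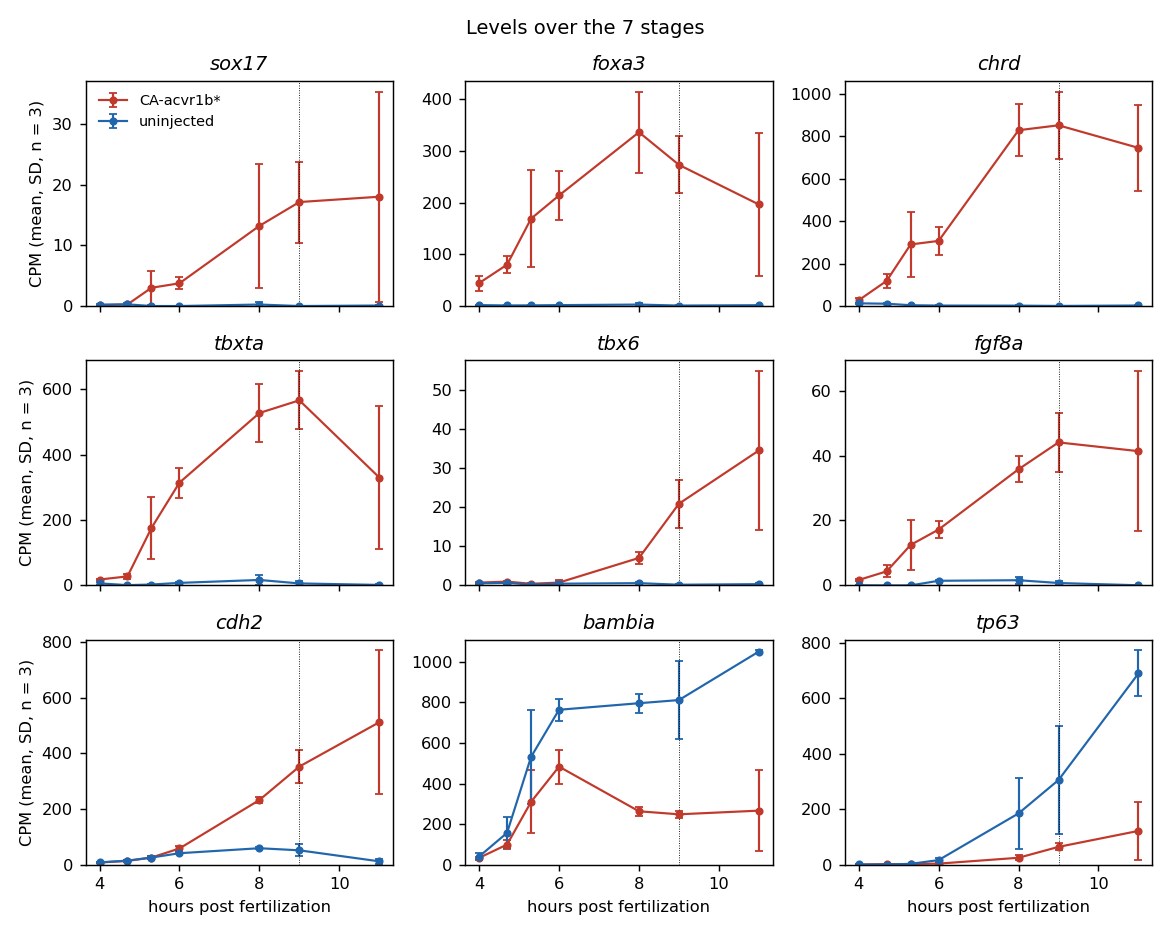
Mean level (CPM, linear axis from 0) of 9 genes over the 7 stages in hours post fertilization, with the SD over 3 libraries as error bars (cut at 0), CA-acvr1b* in red and uninjected in blue; the dotted line marks 90% epiboly. chrd, tbxta and fgf8a are at or near their highest means at 90% epiboly, tbx6 is still rising, and from shield on bambia and tp63 are higher in uninjected than in CA-acvr1b* explants.

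chrd in CA-acvr1b* explants went from 27.1 ± 12.4 CPM at sphere to 829 ± 123 at 75% and 852 ± 158 at 90% epiboly (SD, n = 3), and in uninjected explants it went from 12.7 ± 3.79 to 0.507 ± 0.516 CPM. tbx6 stood at 0.727 ± 0.631 CPM at shield, 7.05 ± 1.54 at 75% epiboly, 21 ± 6.18 at 90% epiboly and 34.6 ± 20.3 at 2-somite in CA-acvr1b* explants. shhb stood at 5.58 ± 0.716, 19.5 ± 3.95 and 54.3 ± 36.9 CPM at the last 3 of these stages. foxa3 was higher on average at 75% epiboly, at 336 ± 78.4 CPM, than at 90% epiboly, at 273 ± 54.9, with overlapping spreads. tp63 went from 16.9 ± 5.9 at shield to 305 ± 193 at 90% epiboly and 689 ± 82.6 CPM at 2-somite in uninjected explants, and from 4.21 ± 2.63 to 64.5 ± 12.2 and 122 ± 104 CPM in CA-acvr1b* explants. The uninjected value of sox3 in replicate A at 90% epiboly, 12.5 CPM, lay near the uninjected mean at 2-somite, 12.1 ± 1.83 CPM, and those of B and C, 173 and 174 CPM, between it and the 75% epiboly mean of 366 ± 295 CPM. The uninjected libraries of 75% epiboly and 2-somite are outside the 90% contrast but share its fit and estimate of the spread. Between 75% epiboly and 2-somite in uninjected explants, 49 of the 107 lower genes rose (45.8%) and 15 fell, against 10.2% and 12.4% of all tested genes. Of the 368 higher genes 109 fell (29.6%) and 27 rose there.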

How the data were processed

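The submitters deposited read counts per gene in a single table, which per the submitters' processing notes came from Trim Galore, STAR and featureCounts with GRCz11 (danRer11). Versions, strand use and the handling of shared reads are not given in the sources used here. Libraries were grouped by their labels, and all 63 libraries in 21 groups entered 1 fit with edgeR 4.0.16 in R 4.3.3 (with limma 3.58.1). Of 32057 genes, 19069 passed filterByExpr (minimum count 10, minimum total 15). Counts were scaled by TMM and tested by the quasi-likelihood F-test with a prior count of 0.125, 42 residual degrees of freedom, Benjamini-Hochberg adjustment over all tested genes and a threshold of 0.05. Comparisons between stages are contrasts of the same fit. Scripts were tested on simulated data. Alternatives were DESeq2 1.42.0 (size factors and Wald test), other filters, other library sets, a replicate block and each library left out. The labels do not say whether replicate letters pair the libraries, and the reported fit has no block. Named genes passed the test with no overlap between groups and with a mean of 5 CPM or more on the higher side, and were the 15 largest rises and falls and the 5 largest CPM gains and losses, or the 5 largest each way in the other comparisons (with no rule on overlap between stages). Members of the gene lists were named too. The comparison, the lists and their members were chosen with earlier results of these data known. Some genes that met these rules are not reported here.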

Additional observations from a re-analysis of the deposited data

Results flagged for a closer look

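The response to CA-acvr1b* was tested for a difference between 90% epiboly and 2-somite, and 28 genes passed in edgeR's interaction contrast. Those below were named by rank, and each value is the log2 fold change at 90% epiboly minus that at 2-somite. ets2 had 1.40 (adjusted p 0.035). cdh11 had -3.15 (0.035), plxnb1a -3.19 (0.041), jag2b -3.52 (0.023), aplnr2 -4.19 (0.022) and prdm8 -9.93 (0.042), adjusted p in parentheses. prdm8 held no count in uninjected explants at 2-somite, so its fitted value depends on the prior count. In the last 5 genes the 2-somite CA-acvr1b* mean was above that at 90% epiboly, for instance 17.3 against 0.879 CPM for prdm8 and 13.4 against 1.71 CPM for plxnb1a. The uninjected level of some also fell from 75% epiboly to 2-somite. The log2 changes were -6.49 for prdm8, -2.44 for aplnr2 and -2.09 for jag2b (edgeR adjusted p 0.0146, 0.00263 and 0.00297). plxnb1a and cdh11 were not called there. The number of such genes ranged from 0 to 109 when 1 library was left out, and the highest came without uninjected replicate A of 90% epiboly.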

How the results depend on the processing

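Against uninjected explants 475 genes were called, and other settings called 358 to 594 in all. DESeq2's Wald test also called 350 of the 368 higher and 101 of the 107 lower genes. With only the libraries of the contrast, 268 of these higher genes (72.8%) and 49 of these lower genes (45.8%) were still called. With a replicate block on those libraries, 234 (63.6%) and 36 (33.6%) were. Leaving out libraries gave 221 to 408 in all. The lowest came without all libraries lettered C, or B (251). The labels do not say whether the letters pair the libraries, and correlations over 3 libraries per group cannot decide it. Deviations of same-lettered CA-acvr1b* and uninjected libraries correlated at -0.020, -0.024 and 0.058, and CA-acvr1b* replicate B correlated best with uninjected replicate A (0.083). With a replicate block 469 genes were called. Against ndr2 explants, the 71 genes became 155 by DESeq2's Wald test, 293 with only the libraries of the contrast, 313 with a replicate block on those libraries, and 3 to 66 with libraries left out. The 28 genes that differed between 90% epiboly and 2-somite became 105 by DESeq2's Wald test, 0 with only the libraries of the contrast and 1 with a replicate block on those libraries, and 0 to 109 with libraries left out. The difference between 90% and 75% epiboly stayed at 0 genes in every setting, 0 to 0 with libraries left out. The cause of these shifts was not tested. Over 134 of the named genes and all alternatives, no fold change changed sign, 303 of 2138 values lost a call and 34 gained one. Outside that set, krt4 went from log2 -0.16 to 0.02 and aplnr2 from 0.50 to -0.05 without uninjected replicate A, both without a call. Of the 475 called genes, 1 changed sign without uninjected replicate A and 2 without all libraries lettered A. Among the gene lists, leaving out uninjected replicate A, an alternative chosen after seeing the data, reduced called epidermal genes from 3 to 0, called BMP response genes from 5 to 2, neuropilin and semaphorin genes from 2 to 0, Hox genes from 2 to 1, and lateral mesoderm, proneural and immediate early genes from 1 to 0 each. It also reduced called paraxial genes from 9 to 7, tailbud genes from 7 to 5, notochord genes from 11 to 10, endoderm genes from 5 to 4, Fgf ligand genes from 5 to 4 and Hedgehog genes from 3 to 2, raised forebrain genes from 4 to 5, and moved no other list's count. Counts of 3 or fewer per library limit statements about genes below about 0.2 CPM, and 3 libraries per group limit the calls.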

Other observations

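Hox genes, which pattern the trunk, were sparse at 90% epiboly. Of 28 tested, hoxb8a and hoxc8a were higher in edgeR, and the summed Hox level was 2.9 to 20.98 CPM in CA-acvr1b* libraries and 1.90 to 2.32 CPM in uninjected ones. hoxb8a held 1.09, 2.58 and 0.965 CPM and no uninjected count, a rise of at least 6.72-fold (adjusted p 0.00777 in edgeR), and its call was lost without uninjected replicate B. hoxc8a held 0.749, 3.05 and 0.402 CPM against 0, 0.122 and 0 CPM, and its call was lost without CA-acvr1b* replicate B or any 1 uninjected library.

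Neuropilin and semaphorin genes, receptors and ligands of guided cell movement, had 1 higher and 1 lower gene of 11 tested, and 0 called in edgeR without uninjected replicate A. nrp1a held 3.34, 3.37 and 2.74 CPM against 19.9, 10.6 and 11.8 CPM, a log2 fold change of -2.16 (SE 0.54, adjusted p 0.0127 in edgeR). It was -1.83 (adjusted p 0.0994 in edgeR) without uninjected replicate A, and the call was also lost without any 1 CA-acvr1b* library. In the separate libraries of shield, 75% epiboly and 2-somite nrp1a was called lower too. Its log2 fold changes there were -7.43, -2.63 and -1.66 (edgeR adjusted p 0.000802, 0.00336 and 0.0277). At 50% epiboly it was not called. sema3fb held 1.23, 5.48 and 0.885 CPM and no uninjected count, a rise of at least 11-fold (adjusted p 0.0111 in edgeR), with CA-acvr1b* replicate B highest, and its call was lost without that library or any 1 uninjected library. The other 9 of 11 tested genes were not called. None of 7 tested p53 and stress genes was called in edgeR or by DESeq2 or had an unadjusted p under 0.05, with log2 fold changes from -0.62 to 0.22.

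Some genes were high in ndr2 explants alone. myclb, a Myc family gene, held 7.05, 10.5 and 2.32 CPM there and at most 0.165 CPM in the other libraries of 90% epiboly. zgc:111986 held 37.4, 50.8 and 16.9 CPM there, 1.36, 1.64 and 2.17 CPM in CA-acvr1b* libraries and 0.331, 1.65 and 0.344 CPM in uninjected ones.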
